A study of Mus musculus with 202 samples.

Results

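The 40 genes described here act in G2 and mitosis. They were found by symbol in a table of 28894 genes from single mouse cells, and all 40 passed a floor on low values. The floor asked for 5 TPM (transcripts per 1000000) on average over all cells pooled, and for presence above 0 in 10% of the cells. In all, 7222 genes passed that floor. As background, cyclin-dependent kinase 1, bound first to cyclin A and then to cyclin B, drives a cell from G2 into mitosis, where chromosomes condense, attach to the spindle through kinetochores and separate once the anaphase-promoting complex has marked cyclin B and securin for destruction. Many of the genes that encode this machinery are silent in resting cells and are transcribed together late in the cell cycle, under the MuvB complex with B-Myb and FoxM1. Their transcripts are therefore widely used to mark dividing tumour cells, and they are not a direct measure of cell cycle phase.

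The cells came from a pancreatic ductal adenocarcinoma line grown out of a liver metastasis of a male mouse. The strain is given as KPC, a genetically engineered mouse model of pancreatic cancer, and the alleles are not listed in the labels. The line was grown in DMEM with 10% serum and used at passages 4 to 6. Flow sorting on E-cadherin, the junction protein of epithelia and product of Cdh1, split it into positive cells (Ecad+) and negative cells (Ecad-), and no other treatment is named. The labels name no separate cultures, so each group is 1 sample of 1 line, cells are not replicates, and no p-value is given below.

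The table held 104 Ecad+ and 98 Ecad- libraries in 3 library sets, numbered here 1 to 3 by a suffix of the library name whose meaning is not stated. After 5 near-identical pairs of libraries were averaged, 100 Ecad+ and 97 Ecad- cells remained. Epithelial markers were listed in both groups (summed median 4098 and 1680 TPM over 7 genes), with Cdh1 above 0 in 100 of 100 Ecad+ and 78 of 97 Ecad- cells. The immune marker Ptprc was listed at 0 in every cell, whereas the macrophage-associated gene Cd68 was above 0 in 36 Ecad+ and 41 Ecad- cells (means 6.35 and 30.0 TPM, log2 ratio 2.08). Summed over each list, markers reached 10 TPM in 16 Ecad+ and 33 Ecad- cells for 5 immune genes, in 0 and 10 for 4 endothelial genes and in 0 and 1 for 5 fibroblast genes, and the part of such cells in the results was not tested. A pair of library measures differed between the groups and are set beside the results they move with. Ecad- cells had fewer genes above 0 (median 8674 against 10318.5), and in 40 of 97 of them mitochondrial genes took under 1% of TPM, against 1 of 100 Ecad+ cells.

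Promoter sequences are shown first, because some motifs are more frequent in those of these genes, and the choice of members did not use them. In cycling cells, the cell cycle genes homology region, read here as TTTGAA or TTTAAA, is a site of the MuvB complex, and CCAAT boxes are sites of the factor NF-Y. RefSeq promoters (GRCm38.p6, 250 bases before to 50 after the start) matched 34 of the 40 members, and both strands were searched. TTTGAA stood in 25 of 34 (73.5%), against 18.1% of all 27025 promoters in the table, and TTTGAA or TTTAAA in 29 (85.3% against 27.8%). CCAAT stood in 27 (79.4% against 37.9%), at least 2 copies of it in 19 (55.9% against 12.2%), and CCAAT together with either of the other motifs in 25 (73.5% against 10.9%). Nuf2, Nusap1 and Tacc3 had none of these motifs. A match describes letters in this window and is not a measured site. The promoters below run from 170 bases before to 30 after the start. Ube2c, Kif23 and Cdk1 are shown because they had the lowest ratios of Ecad- over Ecad+ among the members, Ccnb1 because it encodes the cyclin of mitotic entry, and Cks2 because its ratio was nearest to 0 among the members with a promoter. Capitals mark CCAAT and TTTGAA or TTTAAA on either strand. On the other strand CCAAT reads ATTGG, while TTTGAA appears as TTCAAA and TTTAAA is its own complement.

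Ube2c (chr2:164769759-164769958, plus strand): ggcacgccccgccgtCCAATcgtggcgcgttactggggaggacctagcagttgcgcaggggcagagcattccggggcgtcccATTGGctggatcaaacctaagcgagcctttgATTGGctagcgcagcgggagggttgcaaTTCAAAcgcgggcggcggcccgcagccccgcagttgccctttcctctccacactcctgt
Cdk1 (chr10:69352883-69353082, minus strand): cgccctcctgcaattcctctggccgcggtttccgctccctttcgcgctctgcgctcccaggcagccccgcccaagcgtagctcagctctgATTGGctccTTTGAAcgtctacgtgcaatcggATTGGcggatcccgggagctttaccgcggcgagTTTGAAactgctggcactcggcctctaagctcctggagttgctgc
Kif23 (chr9:61946770-61946969, minus strand): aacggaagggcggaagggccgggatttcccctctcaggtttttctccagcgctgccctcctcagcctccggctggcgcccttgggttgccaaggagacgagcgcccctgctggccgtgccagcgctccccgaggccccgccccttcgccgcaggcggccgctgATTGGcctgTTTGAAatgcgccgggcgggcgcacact
Ccnb1 (chr13:100786457-100786656, minus strand): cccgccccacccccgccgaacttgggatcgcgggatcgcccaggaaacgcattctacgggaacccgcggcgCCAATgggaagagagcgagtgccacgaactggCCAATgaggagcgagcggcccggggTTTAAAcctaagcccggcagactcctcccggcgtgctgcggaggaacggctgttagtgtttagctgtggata
Cks2 (chr13:51645062-51645261, plus strand): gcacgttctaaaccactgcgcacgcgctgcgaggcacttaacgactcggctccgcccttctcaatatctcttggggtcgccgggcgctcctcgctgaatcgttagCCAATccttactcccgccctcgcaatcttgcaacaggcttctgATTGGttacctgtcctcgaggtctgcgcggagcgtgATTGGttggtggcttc

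Ube2c held 6 CCAAT motifs in the 300-base window, of which the stretch shown has those nearest the start, and Cdk1 held 2 TTTGAA motifs. Cks2 had neither TTTGAA nor TTTAAA and had 4 CCAAT motifs.

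The first question was how many cells carried the programme at all. In both groups the number of members present per cell ran from few to nearly all, and cells with many members were more frequent in Ecad+. The class used below is a cut through that range and not a type of cell. A member was counted in a cell when it reached 10 TPM, and a cell with at least 20 of the 40 members is called G2/M-high here. This was the case in 68 of 100 Ecad+ cells (68%, exact Clopper-Pearson 95% interval 57.9% to 77.0%) and in 30 of 97 Ecad- cells (30.9%, 21.9% to 41.1%). These intervals cover only the error of counting and take each cell as independent. Few cells lay near the limit, with 2 Ecad+ and 6 Ecad- cells at 18 to 22 members.

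The counts per cell were U-shaped in Ecad+ cells and less sharply divided in Ecad- cells. Among Ecad+ cells, 29 had 0 to 10 members, 3 had 11 to 19, 5 had 20 to 29 and 63 had 30 to 40. Among Ecad- cells the numbers were 54, 13, 11 and 19. All 40 members were present at 10 TPM in 7 Ecad+ cells and in 0 Ecad- cells. The median G2/M-high cell had 37.5 members in Ecad+ and 32 in Ecad-, so Ecad- cells above the limit also held a less complete set.

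**Figure D1:**
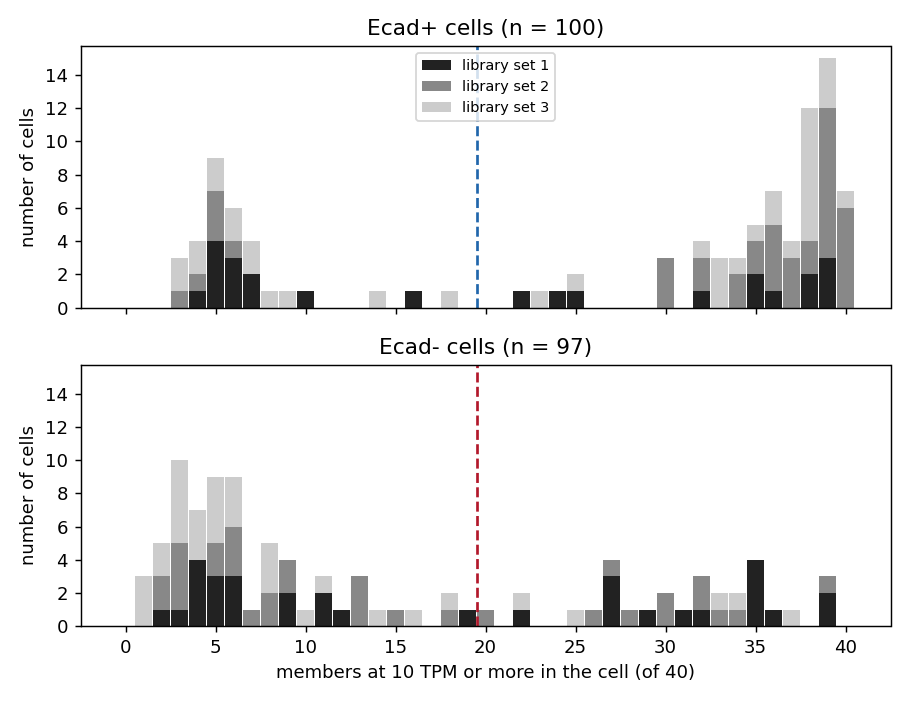
Number of members (of 40) at 10 TPM or more in each cell, as stacked counts of cells by library set, for 100 Ecad+ and 97 Ecad- cells (an averaged pair is drawn in the set of its first library). The dashed line is the limit of 20 members, which 68 Ecad+ and 30 Ecad- cells reached.

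The direction was the same in each library set, and the size was not. In set 1, 15 of 28 Ecad+ libraries (53.6%) and 14 of 33 Ecad- libraries (42.4%) were G2/M-high. The shares were 33 of 39 (84.6%) and 11 of 32 (34.4%) in set 2, and 23 of 37 (62.2%) and 5 of 33 (15.2%) in set 3. The gap thus ran from narrow in set 1, where the intervals overlap (33.9% to 72.5% and 25.5% to 60.8%), to wide in sets 2 and 3.

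The share of G2/M-high cells moved with the number of genes above 0 in the cell. G2/M-high cells had a median of 10471 genes above 0 in Ecad+ and 9129 in Ecad-, against 9823.5 and 8475 in the other cells of each group. With cells grouped by that number, 3 of 11 Ecad+ (27.3%) and 9 of 31 Ecad- cells (29.0%) were G2/M-high at 8500 to 9499 genes, and 30 of 48 (62.5%) and 8 of 14 (57.1%) at 9500 to 10499 genes. Below 8500 genes the counts were 1 of 2 and 9 of 43. At 10500 genes or more they were 34 of 39 (87.2%) and 4 of 9 (44.4%). A central window of gene numbers was also taken, 9408.7 to 10297.4, which runs from the higher of the groups' 10% quantiles to the lower of their 90% quantiles. In that window the shares were 21 of 37 Ecad+ (56.8%, 39.5% to 72.9%) and 8 of 14 Ecad- cells (57.1%, 28.9% to 82.3%). The shares were close there, with wide intervals, and the window leaves out the cells at 10500 genes or more, where they parted. The window's Ecad- cells came mostly from library set 1 and its Ecad+ cells mostly from set 3. Gene number can therefore not be told apart from library set there. TPM keeps no read depth, so whether fewer genes were listed because libraries were shallower or because cells made fewer transcripts cannot be told apart. The same limit touches every difference in member level between the groups given below.

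**Figure D2:**
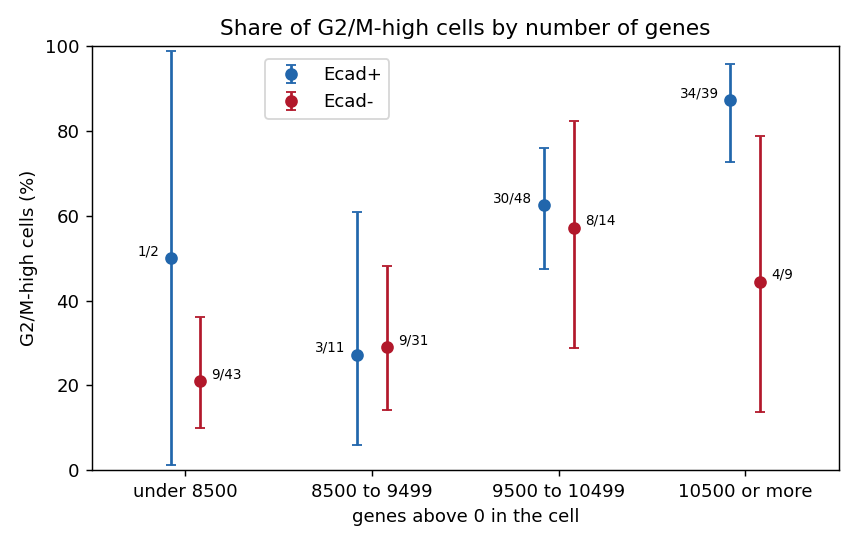
Percentage of cells that are G2/M-high (vertical axis) in 4 ranges of the number of genes above 0 in the cell, with exact 95% Clopper-Pearson intervals and counts of cells. At 8500 to 9499 and 9500 to 10499 genes the points of the 2 groups lie close together (27.3% and 29.0%, 62.5% and 57.1%), and the groups part in the top range, where 4 of 9 Ecad- cells were G2/M-high.

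Leaving out cells of low mitochondrial share changed these shares little. Without the cells in which mitochondrial genes took under 1% of TPM, 68 of 99 Ecad+ (68.7%) and 19 of 57 Ecad- cells (33.3%) were G2/M-high. Among the 40 Ecad- cells under 1%, 11 were G2/M-high (27.5%, 14.6% to 43.9%).

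Other mitotic genes divided the cells in nearly the same way. A list of 50 other mitotic genes, of which 38 passed the floor, called 66 of 100 Ecad+ and 30 of 97 Ecad- cells high by the same kind of rule (at least 19 of 38 at 10 TPM). Of those cells, 66 and 28 were also G2/M-high by the members. Within Ecad+, 35 of the 38 other mitotic genes were at least 2-fold higher in G2/M-high than in other cells, against 4.98% of all genes tested, and within Ecad- 34 of 38 were, against 7.85%.

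DNA replication genes were present in most of the same cells. Of 28 S phase genes, such as Rrm2 (a subunit of ribonucleotide reductase), at least 14 reached 10 TPM in 75 Ecad+ and 44 Ecad- cells. Both sets were high in 64 Ecad+ and 27 Ecad- cells, the members alone in 4 and 3, S phase genes alone in 11 and 17, and neither in 21 and 50. Cells with neither set were thus 21% of Ecad+ (13.5% to 30.3%) and 51.5% of Ecad- cells (41.2% to 61.8%). The median over cells of the mean log2(TPM + 1) of S phase genes was 4.97 in G2/M-high and 2.42 in other Ecad+ cells, and 4.57 and 2.29 in Ecad-.

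Averaged over all cells, the members were lower in Ecad- as a group. A ratio here is log2 of the Ecad- over the Ecad+ mean TPM with 1 TPM added to each, so it is a difference and not a level, and it understates the change of low genes. All 40 members lay below the all-gene median ratio of 0.31 (background 50%), 23 of 40 were at least 2-fold lower (background 4.14%) and 0 of 40 at least 2-fold higher (background 14.2%). Gtse1, Mki67, Ttk and Dlgap5 averaged under the floor of 5 TPM in Ecad- cells and passed it only through their Ecad+ means. Mki67 and Ttk are among the 23. In each of the library sets 26 of 40 were lower (background 14.8%) and 0 of 40 higher (background 44.9%). Per cell, the Ecad- median lay below the Ecad+ median for all 40 members, and was under 10 TPM for 36 members in Ecad- against 5 in Ecad+. For 15 members the Ecad- median was listed at 0. The groups overlapped for every member, because both reached down to 0 or close to it, and for 32 members the single highest cell was an Ecad- cell. For these counts of medians and highest cells the share over all genes was not computed, so they are descriptions of the members only. A group mean cannot tell apart fewer cells with the programme from less RNA in each such cell, so the levels below are followed by those within G2/M-high cells.

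**Figure D3:**
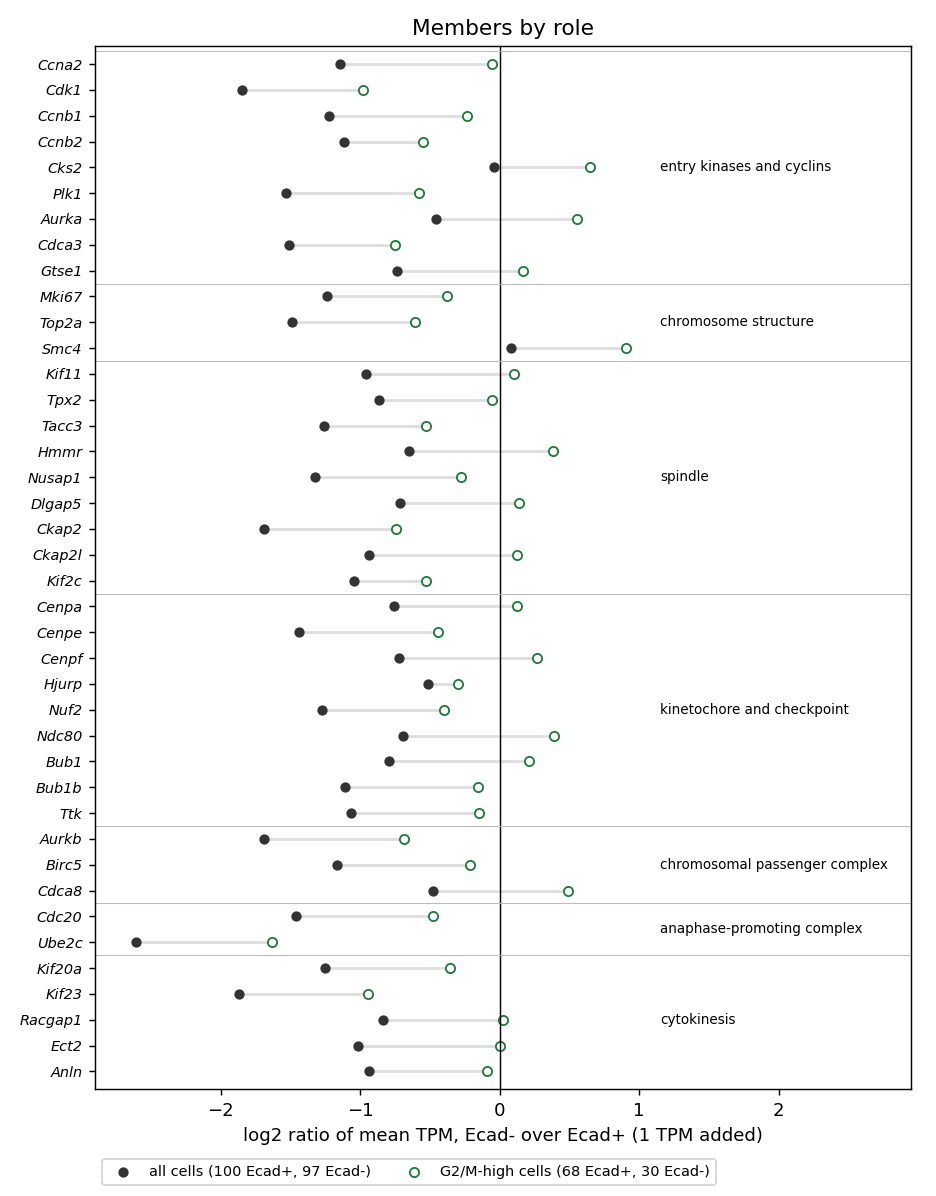
Log2 ratio of mean TPM, Ecad- over Ecad+ with 1 TPM added, for the 40 members by role. Filled points are all cells (range -2.61 for Ube2c to 0.08 for Smc4), and open points are G2/M-high cells (range -1.63 to 0.91), which lie further to the right for every member.

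Kinases and cyclins of mitotic entry were lower in Ecad- cells, with Cks2 and Aurka nearest to 0 by mean TPM. Of 9 members in this role, 6 were at least 2-fold lower (background 4.14%). Cdk1, the catalytic partner of the mitotic cyclins, ranged from 0 to 2102 TPM in Ecad+ cells with a median of 518, and from 0 to 1239 TPM with a median of 63.6 in Ecad- cells. It reached 10 TPM in 96 of 100 and 65 of 97 cells, more than the 68 and 30 G2/M-high cells, so it was also present in many cells without the programme. The means of 580 and 160 TPM gave a log2 ratio of -1.85, with -1.09, -1.87 and -2.55 in library sets 1, 2 and 3.

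Ccna2 encodes cyclin A2, which partners the kinase in S phase and G2. It had a median of 98.1 TPM in Ecad+ (highest cell 653) and 1.37 TPM in Ecad- cells (highest 686), with a log2 ratio of means of -1.15. At 10 TPM it was present in 72 and 30 cells, close to the numbers of G2/M-high cells. Ccnb1, the gene of cyclin B1, had medians of 132 and 1.01 TPM and highest cells of 996 and 1961 TPM. Its ratio of -1.22 was not shared by the sets, which stood at 0.17, -2.41 and -1.72.

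Plk1, a kinase of spindle assembly and mitotic exit, had medians of 22.8 TPM in Ecad+ and 0 in Ecad- cells, with means of 29.2 and 9.46 TPM (log2 ratio -1.53). At 10 TPM it was present in 59 Ecad+ and 20 Ecad- cells. Aurka, the centrosomal Aurora kinase, had medians of 57.1 and 0.08 TPM, while its means of 79.6 and 57.7 TPM were close. A single Ecad- cell at 1941 TPM, against 321 TPM in the highest Ecad+ cell, went into that mean, and the sets stood at 0.97, -1.74 and -0.77. The log2 ratio of Aurka was -0.46, and -2.04 with means of log2(TPM + 1). Cks2, a small subunit bound by the kinase, had medians of 179 and 93.7 TPM and means of 199.9 and 194 TPM (log2 ratio -0.04), and reached 10 TPM in 96 and 89 cells. Cdca3, a trigger of mitotic entry, stood at -1.51, Ccnb2 at -1.12 and Gtse1 at -0.74.

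Among genes of chromosome structure, Top2a and Mki67 were lower, and the direction of Smc4 depended on the averaging. Top2a encodes the topoisomerase that untangles sister chromatids. Its median was 62.9 TPM in Ecad+ (highest cell 230) and 2.48 TPM in Ecad- cells (highest 510), and the means of 71.6 and 24.9 TPM gave a log2 ratio of -1.49, with -0.96, -1.76 and -1.18 in the sets. Mki67, which encodes the Ki-67 antigen of dividing cells, was a low transcript per length, with medians of 8.23 and 0 TPM and highest cells of 33.7 and 81.4 TPM. It reached 10 TPM in 42 Ecad+ cells, all of them G2/M-high, and in 10 Ecad- cells, also all G2/M-high. Smc4, a condensin subunit, had medians of 180 and 61.9 TPM but means of 275 and 290 TPM (log2 ratio 0.08, and -1.40 with means of log2(TPM + 1)), and its highest cells stood at 1343 and 2825 TPM. At 10 TPM it was present in 98 and 72 cells, and so was not restricted to G2/M-high cells.

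Spindle genes were lower across the role, with 4 of 9 at least 2-fold lower (background 4.14%) and all 9 below 0 (background 31.2%). Ckap2, a microtubule-associated protein, had the lowest ratio at -1.69, with medians of 24.7 and 0.03 TPM and highest cells of 113 and 117 TPM. It reached 10 TPM in 72 Ecad+ and 22 Ecad- cells. Kif11, the kinesin that pushes spindle poles apart, had medians of 14.8 and 0 TPM and means of 17.8 and 8.70 TPM (log2 ratio -0.95), with 0.14, -1.36 and -1.50 in the sets. Hmmr, a spindle protein and hyaluronan receptor, was nearest to 0 in this role at -0.65. Its medians were 39.7 and 0.41 TPM, its highest cells 155 and 494 TPM, and its ratio was 0.42 in set 1, -2.03 in set 2 and -0.24 in set 3. The others stood at -1.32 (Nusap1), -1.26 (Tacc3), -1.04 (Kif2c), -0.94 (Ckap2l), -0.86 (Tpx2) and -0.71 (Dlgap5).

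Kinetochore and checkpoint genes differed less, with 4 of 9 at least 2-fold lower (background 4.14%) and a role median of -0.79. Cenpe, a kinetochore motor, was lowest at -1.44. Its medians were 20.6 TPM in Ecad+ (highest cell 148) and 0.01 TPM in Ecad- cells (highest 93.4), and it reached 10 TPM in 57 and 22 cells, all of them G2/M-high. Cenpa, the histone variant that marks centromeres, had medians of 101 and 13.3 TPM and means of 133 and 78.4 TPM (log2 ratio -0.76), with 0.12, -1.01 and -2.79 in the sets. Hjurp, the chaperone that loads Cenpa, was nearest to 0 at -0.52, with medians of 15.3 and 8.21 TPM. Listed above 0 in 100 Ecad+ and 89 Ecad- cells, it followed the other members least, as given below. Nuf2 stood at -1.28, Bub1b at -1.11, Ttk at -1.06, Bub1 at -0.79, Cenpf at -0.72 and Ndc80 at -0.69.

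The chromosomal passenger complex corrects faulty attachments and then helps cytokinesis. Aurkb, its kinase, had medians of 42.6 and 0 TPM, and its means of 52.3 and 15.6 TPM gave a log2 ratio of -1.69, with -1.10, -1.90 and -1.64 in the sets. Cells at 10 TPM numbered 65 in Ecad+ and 24 in Ecad-. Birc5, the gene of survivin, had medians of 195 and 0.54 TPM and highest cells of 687 and 789 TPM (log2 ratio -1.17). Cdca8, the borealin gene, was nearer to 0, with medians of 40.9 and 7.58 TPM and a ratio of -0.48.

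Both genes that work with the anaphase-promoting complex were at least 2-fold lower (background 4.14%), and Ube2c was the lowest of all 40 members. Ube2c (chr2:164769898-164778822 in GENCODE M21, mm10) encodes the ubiquitin-conjugating enzyme of the complex. It ranged from 0 to 2430 TPM in Ecad+ cells with a median of 399, and from 0 to 839 TPM with a median of 1.41 in Ecad- cells. The means were 555 and 90.1 TPM (log2 ratio -2.61), and the sets stood at -1.13, -3.20 and -3.98. Its exons overlap those of Tnnc2, and the library chemistry does not mark strand, so reads of the 2 genes could be exchanged there. The same holds for 9 other members with overlapping exons, among them Ccna2, Plk1, Top2a and Cdc20. Cdc20, the activator of the complex, had medians of 49.8 and 0 TPM and highest cells of 497 and 774 TPM (log2 ratio -1.46, with -0.35, -2.28 and -2.73 in the sets).

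Cytokinesis genes were lower, with 3 of 5 at least 2-fold lower (background 4.14%). Kif23, a kinesin of the central spindle, had medians of 34.6 and 0.12 TPM and highest cells of 198 and 111 TPM. It reached 10 TPM in 77 Ecad+ and 32 Ecad- cells, and its log2 ratio of -1.87 was below -1 in each set (-1.10, -2.52 and -2.18). Kif20a, another central spindle kinesin, had medians of 21.9 and 0 TPM and a ratio of -1.25. Anln, the gene of the contractile ring protein anillin, had medians of 13.9 and 0.03 TPM and a ratio of -0.93. Racgap1, which forms a complex with Kif23, was nearest to 0 in this role, at -0.83, and Ect2, which activates the small GTPase of the ring, stood at -1.02.

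**Figure D4:**
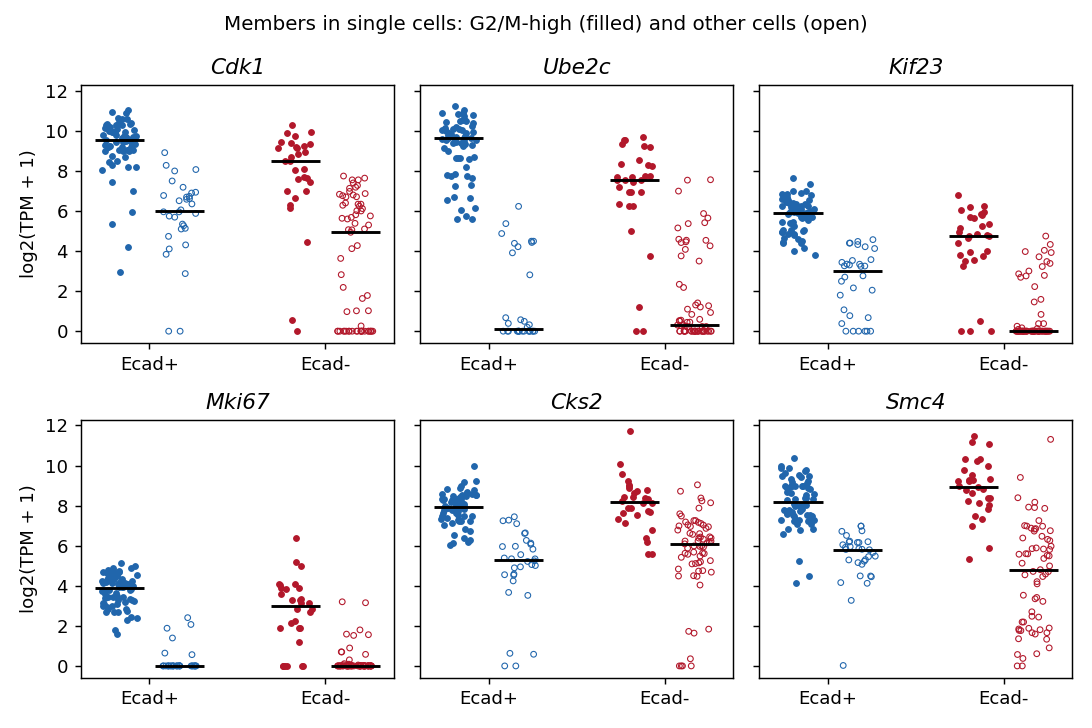
Level of 6 members in each cell as log2(TPM + 1), for G2/M-high cells (filled) and other cells (open) of each group, with bars at the median. Cdk1, Ube2c, Kif23 and Mki67 have lower medians in G2/M-high Ecad- than in G2/M-high Ecad+ cells, while Cks2 and Smc4 have higher ones.

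Compared within G2/M-high cells alone, the groups were closer in mean TPM. The members define this class, so these values are a description. The median member ratio was -0.19, against 0.35 for all genes, and 25 of 40 members were below 0 (background 30.3%) and 34 below the all-gene median (background 50%). By ratios of mean TPM, only Ube2c was at least 2-fold lower (background 3.68%), and 0 members were at least 2-fold higher (background 19.3%). With means of log2(TPM + 1), which give weight to cells listed at 0, 11 members were at least 2-fold lower (background 14.5%) and 0 at least 2-fold higher (background 5.79%), with a member median of -0.77 against -0.15 for all genes. The 11 were Ube2c (-2.23), Cdca3 (-1.87), Ckap2 (-1.65), Aurkb (-1.55), Cdk1 (-1.49), Kif23 (-1.46), Ccnb2 (-1.44), Plk1 (-1.38), Nuf2 (-1.21), Mki67 (-1.08) and Tacc3 (-1.06). Medians over the G2/M-high cells were lower in Ecad- for 36 of 40 members, the exceptions being Cks2, Smc4, Bub1 and Cdca8. The SD of log2(TPM + 1) over G2/M-high cells was larger in Ecad- for 38 of 40 members, the exceptions being Ccnb1 and Top2a. For these counts of medians and SDs the share over all genes was not computed, so they cannot be read as particular to the members.

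Ube2c had a median of 787 TPM over 68 G2/M-high Ecad+ and 188 TPM over 30 G2/M-high Ecad- cells, a log2 ratio of means of -1.63, with -0.85, -2.19 and -2.42 in the sets. Next came Cdk1 (medians 744 and 358 TPM, log2 ratio -0.98 and -0.89, -0.76 and -1.25 in the sets) and Kif23 (59.5 and 26.4 TPM, -0.94, with -0.89, -1.46 and -0.48). These 3 were lower in each set, as were Ccna2, Ccnb2, Cdca3, Tacc3, Ckap2, Kif2c, Cdc20 and Kif20a. The same share over all genes was not computed, and set 3 holds only 5 G2/M-high Ecad- libraries. Among the cyclin genes, Ccna2 stood at -0.05 and Ccnb1 at -0.23, while Ccnb2 was lower at -0.55 (medians 91.4 and 43.6 TPM, with -0.55, -1.11 and -1.75 in the sets). On the other side stood Smc4 (medians 289 and 493 TPM, log2 ratio 0.91, with 1.23, 0.90 and 1.42 in the sets), Cks2 (245 and 289.95 TPM, 0.65) and Aurka, whose ratio of means was 0.55 while its median was lower in Ecad- (104 and 57.4 TPM).

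When the class was drawn from the 38 other mitotic genes instead, with 66 Ecad+ and 30 Ecad- cells, the members gave a like picture. Their median ratio was -0.25 against 0.35 for all genes, 3 of 40 were at least 2-fold lower (background 4.26%) and 1 at least 2-fold higher (background 21.2%). The 3 were Ube2c at -1.71, Cdk1 at -1.07 and Kif23 at -1.01, and the 1 was Smc4 at 1.06.

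In the cells below the limit, most member levels were low, and the share of members with a ratio above 0 was not far from that of all genes. The members define this class too, so these values are a description. Many member means were low here, so the added 1 TPM weighs on their ratios. Levels were not low for Cdk1 (means 97.6 TPM in Ecad+ and 49.0 in Ecad-), Smc4 (54.4 and 102) and Cks2 (52.2 and 92.2). In these cells, 28 of 40 members had a ratio above 0 (background 61.6%) and 24 lay above the all-gene median, which splits all genes evenly. The member median was 0.56 against 0.20 for all genes. The 10 genes of the late list given below were all above 0, with a median of 0.97, while the early list had a median of -0.10. Ccnb1 averaged 1.66 TPM over the 32 Ecad+ and 11.9 TPM over the 67 Ecad- cells below the limit, and reached 10 TPM in 2 and 16 of them. Of these cells, 3 Ecad+ and 13 Ecad- cells held 11 to 19 members. Kif23 went the other way, at 7.78 and 2.52 TPM.

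The same comparison among cells of the central window of gene numbers (37 Ecad+ and 14 Ecad- cells) gave no lower level of the members as a group. Their median ratio was 0.40 against 0.38 for all genes. There, 30 of 40 members were above 0 (background 71.1%), 7 at least 2-fold higher (background 19.8%) and 0 at least 2-fold lower (background 4.35%). Ube2c kept a negative ratio of -0.63, with means of 381 and 246 TPM, as did Cdk1 at -0.36 and Kif23 at -0.67. Top2a was the lowest at -0.96, and Aurka the highest at 1.86, with means of 53.2 and 196 TPM. The Ecad- values in this window rest on 14 cells, mostly of library set 1, while the Ecad+ cells were mostly of set 3.

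Early and late transcripts of the programme were then set against each other. The early list (Ccna2, Cdk1, Top2a, Mki67, Smc4, Tacc3, Kif11 and Ndc80) holds 8 genes whose transcripts rise in S phase and G2, and the late list (Ccnb1, Ccnb2, Cdc20, Plk1, Aurka, Cenpa, Cenpe, Hmmr, Dlgap5 and Kif20a) holds 10 whose transcripts peak at the entry to mitosis. Both lists were placed by textbook knowledge. For each cell, the mean log2(TPM + 1) of the early list was subtracted from that of the late list.

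Late transcripts were below early ones in most cells of both groups. Over G2/M-high cells the late minus early difference was -0.59 ± 0.99 (SD over 68 cells) in Ecad+ and -0.73 ± 1.30 (SD over 30 cells) in Ecad-. Late exceeded early in 16 of 68 and 7 of 30 of these cells. Over all G2/M-high cells the gap between the groups was small beside the spread over cells, and its sign depended on which cells and genes entered. It was wider, with Ecad- higher, among the 21 Ecad+ and 8 Ecad- G2/M-high cells of the central window of gene numbers, as given in the last section. Ecad- stood higher by 0.11 without cells under 1% mitochondrial TPM, and by 0.06 with Smc4 left out of the early list. By library set, the G2/M-high means were -0.14 and -0.12 in set 1, -0.59 and -1.30 in set 2, and -0.75 and -1.22 in set 3. Ecad- cells were thus lower in sets 2 and 3 and not in set 1, and set 3 holds only 5 G2/M-high Ecad- libraries.

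Both lists were lower in Ecad- cells by about the same amount over all cells, with medians of -1.19 over early and -1.17 over late members. Within G2/M-high cells the medians were -0.22 and -0.29. Below the limit, late exceeded early in 0 of 32 Ecad+ and 9 of 67 Ecad- cells, and the mean difference was -1.46 and -0.68. In the central window of gene numbers, all 10 late members were above 0 (background 71.1%). Their median was 0.87 and that of the early members 0.04, against 0.38 for all genes. The groups also differed there in their mix of library sets.

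**Figure D5:**
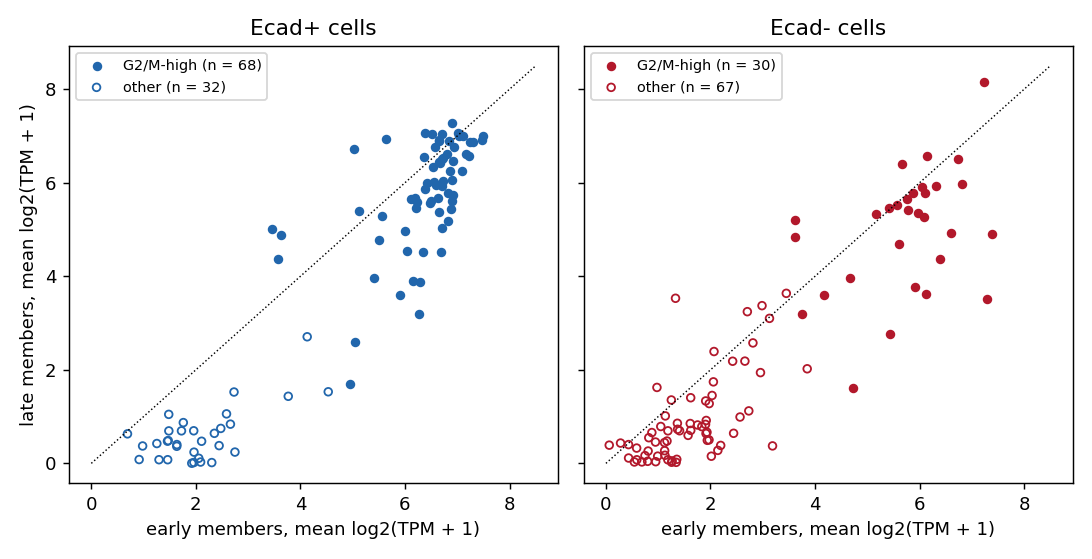
Mean log2(TPM + 1) of the 10 late members against that of the 8 early members in each cell, for G2/M-high (filled) and other cells (open); the dotted line marks equal values. Late exceeded early in 16 of 68 G2/M-high Ecad+ and 7 of 30 G2/M-high Ecad- cells, and a few cells of each group lie low on the late axis at a high early value.

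The members varied together over cells. The correlation of a member with the mean of the other members had a median of 0.91 over 100 Ecad+ cells and 0.76 over 97 Ecad- cells. It was highest for Ube2c, Ckap2l and Hmmr in Ecad+ (all 0.96), and lowest for Hjurp in both groups (0.59 and 0.34). These correlations are descriptions over cells that share libraries and gene numbers, as are those below.

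Within G2/M-high cells the early and late lists differed in their median correlation with Cdc20, one of the late genes, while single members overlapped. Late members had a median correlation with Cdc20 of 0.64 in Ecad+ and 0.44 in Ecad- cells, and early members of 0.18 in both. Ccnb1 stood at 0.78 and 0.41, and Top2a at 0.06 and 0.09. In Ecad+ the early gene Ccna2 (0.55) lay above the late gene Dlgap5 (0.48). In Ecad- the early gene Mki67 (0.43) lay above Dlgap5 (0.21). With the mean of S phase genes, late members had medians of -0.28 and -0.11 and early members of 0.04 and 0.18. Cdk1 (0.41 and 0.25) and Aurkb (0.48 and 0.51) were among the members that went with S phase genes in both groups, while Cenpa (-0.52 and -0.43) went against them.

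The 10 non-member genes most like the members were ranked by the lower of the 2 within-group correlations with the mean of the members, over 100 Ecad+ and 97 Ecad- cells and 7182 genes. They were Cep55, Depdc1a, Kif20b, Shcbp1, Ncapg, Knl1, Sgo1, Pbk, Melk and Oip5. Their correlations ran from 0.85 to 0.94 in Ecad+ and from 0.75 to 0.86 in Ecad- cells. Of these 10, 8 were on the list of other mitotic genes. The exons of Oip5 overlap those of the member Nusap1, so reads of these genes could be exchanged there. Sgo1, whose product protects centromere cohesion, followed the members over cells, yet its mean was higher in Ecad- (54.1 and 77.3 TPM, log2 ratio 0.51).

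Among other genes of the pathway, 33 of the 38 other mitotic genes lay below the all-gene median (background 50%), 16 were at least 2-fold lower (4.14%) and 0 at least 2-fold higher (14.2%). The list median was -0.74, against 0.31 for all genes. Pimreg was lowest, with means of 34.2 and 6.47 TPM (log2 ratio -2.24). Spc25, a kinetochore subunit, stood at -1.89, Cenpm at -1.66 and Fbxo5, an inhibitor of the anaphase-promoting complex, at -1.62. Of the S phase genes, 3 of 28 were at least 2-fold lower (background 4.14%), and the list median was -0.50 against 0.31 for all genes. Rrm2 had means of 120 and 39.6 TPM (log2 ratio -1.58) and the helicase gene Mcm5 stood at -1.02, while Pola1, a DNA polymerase gene, was higher at 1.14. Within G2/M-high cells the S phase list had a median of 0.32, near the all-gene median of 0.35.

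Regulators of the programme showed no common direction, with a median of 0.27 over the 12 of 21 above the floor. Foxm1, the activator of late genes, had means of 8.26 and 2.05 TPM (log2 ratio -1.60, with -0.39, -1.91 and -2.41 in the sets) and a correlation of 0.87 and 0.69 with the members. The B-Myb gene Mybl2 was under the floor, at 6.78 and 2.52 TPM. Tfdp1, a partner of E2F factors, stood at -1.27. The MuvB subunit genes Lin52 (7.06 and 19.8 TPM, 1.36) and Lin54 (3.50 and 9.50 TPM, 1.22) were higher in Ecad- cells.

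Of 9 cell cycle inhibitor genes, 7 passed the floor, and 3 of these were at least 2-fold higher in Ecad- cells, against 14.2% of all genes. Gadd45a, a stress-induced gene that restrains entry into mitosis, had means of 8.06 and 71.5 TPM (log2 ratio 3.00), Cdkn1a, which encodes an inhibitor of cyclin-dependent kinases, 34.3 and 130 TPM (1.89), and the antiproliferative gene Btg1 21.9 and 70.7 TPM (1.64). Cdkn2a, known to be lost in many pancreatic tumours, was listed at 5.76 and 4.95 TPM (-0.19). In both groups 3 of the 7 were at least 2-fold lower in G2/M-high than in other cells (background 8.32% in Ecad+ and 5% in Ecad-). These were Btg2, Gadd45a and Cdkn1a in Ecad+, and Btg2, Gadd45a and Btg1 in Ecad-. Gadd45a stood at -1.30 in Ecad+ and -2.01 in Ecad- for that contrast, and Cdkn1a at -1.05 and -0.60.

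Cells with and without the programme also differed in a stress transcript. Ddit3, the gene of the stress factor CHOP, had a median of 4.31 TPM in G2/M-high and 18.0 TPM in other Ecad+ cells, and of 137 and 402 TPM in Ecad- cells. G2/M-high Ecad- cells thus held more Ddit3 than the Ecad+ cells without the programme. Cdkn1a followed the same order, with medians of 6.31 and 15.1 TPM in Ecad+ and 36.4 and 76.1 TPM in Ecad-. Cdh1, the transcript of the sorted protein, differed little between the classes within a group, with 33.3 and 39.3 TPM in Ecad+ and 10.0 and 11.7 TPM in Ecad-. The mitochondrial percentage of TPM had medians of 30.9 and 26.2 in G2/M-high and other Ecad+ cells, and 18.9 and 2.43 in Ecad-, so it moved with the class in Ecad-, and its part in these differences was not tested. Cd68 had means of 3.15 and 13.1 TPM in G2/M-high and other Ecad+ cells, and of 8.87 and 39.5 TPM in Ecad-.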

How the data were processed

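Cell capture used the Fluidigm C1 microfluidic system, with SMARTer amplification and Nextera XT libraries, which carry no molecular identifiers, per the labels' protocols. FastQC 0.11.5, kallisto (no version) and the mouse build mm10 are named in the submitters' processing notes. The transcript index, any filter on cells and any step against doublets were not given in the sources used here, and no doublet caller was run. The authors deposited log2 values for 202 libraries, which summed to 933711 to 987134 per library after back-transformation and were therefore taken as log2(TPM + 1). TPM carries no depth, so levels have no counting error here, and cells could not be thinned to one depth. The authors' comparison columns were not used.

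Groups came from the labels. Pairs of libraries correlating above 0.97 over all genes (5 pairs, 0.984 to 0.994, the next closest at 0.939) were averaged as 1 cell, in which a gene is above 0 if either library lists it, while values by set use the separate libraries. That a pair comes from 1 cell was not tested. Every Ecad+ library has a lower number in its name than every Ecad- library, and an effect tied to that number cannot be told apart from the group. Ratios were computed for all genes together, and those of the members were set beside the 7222 genes above the floor. Coordinates came from GENCODE M21 and promoters from RefSeq, both on GRCm38. Python 3.11.15, numpy 2.4.6, pandas 2.3.3, scipy 1.17.1 and matplotlib 3.10.9 were used, and the scripts were tested on simulated data.

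The members, lists and rules were chosen with earlier results of these data known. Full values are given for a chosen set of members and, in each role, for the lowest and highest ratio. From each further cell cycle list the 4 members with the largest ratio in either direction are named, with Foxm1, Mybl2 and Cdkn1a whatever their values, and the 10 genes most like the members. A gene that this rule names among the S phase genes is not reported here. Further names stand beside a count as its members or exceptions. Alternatives were the averaging (log means, trimmed means), the added TPM, the scaling, the floor, the cells entered, the limits of the class and the early and late lists. Grouping cells by gene number, the class from other mitotic genes, log means within the class and the early list without Smc4 were added after seeing the data.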

Additional observations from a re-analysis of the deposited data

How the results depend on the processing

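The median member ratio relative to all genes (-1.39) stayed below 0 except among cells of the central window of gene numbers, where it was 0.040 with the floor taken on those cells, and it ran from -1.99 to -0.88 with 1 library set left out. The count of members at least 2-fold lower (23) was 38 with log means, 36 with the trimmed mean, 14 with 10 TPM added, 35 with cells rescaled without mitochondrial and ribosomal protein genes, 0 in the central window, 3 among cells high for other mitotic genes, and 11 (without set 2) to 35 (without set 1) with a set left out. Within G2/M-high cells the count was 1, and 11 with log means.

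The share of G2/M-high cells was 56.8% in Ecad+ and 57.1% in Ecad- in the central window, and 77% and 50.5% with members counted above 0. The central window also changes the mix of library sets in each group. In Ecad- it was 41.2% with 12 members needed and 21.6% with 28. With a set left out it was 57.4% to 73.7% in Ecad+ and 24.6% to 39.1% in Ecad-.

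The late minus early difference, Ecad- less Ecad+, was -0.14 in G2/M-high cells. It was 0.11 without cells under 1% mitochondrial TPM, 0.90 in the central window, 0.16 with members counted above 0, 0.14 with 12 members needed, 0.29 with 28, 0.057 without Smc4, and -0.62 to 0.19 with a set left out. Over all cells it was 0.17, and -0.11 with lists by role and 0.88 in the central window. The causes were not tested.

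Of 480 values of single members over 12 settings, 440 were below 0. The 14 that turned from a called difference did so in the central window: Ccnb1 1.28, Ccnb2 0.21, Plk1 0.76, Cdca3 0.14, Mki67 0.0088, Tacc3 0.078, Nusap1 0.59, Kif2c 0.10, Cenpe 0.26, Bub1b 0.67, Ttk 0.97, Cdc20 0.86, Kif20a 0.47 and Ect2 0.23. No paired analysis was possible because each group is 1 sample and no result comes from a test.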
